A study of Rattus norvegicus with 15 samples.

Results

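The comparison set 3 spinal cord libraries from rats given the preparation named YH against 3 from rats given the preparation named BZ, 6 of the 15 libraries in the series. Members were taken by sample title, and genes were kept where CPM, the counts of a gene scaled to a fixed library total, reached 1 or more in at least 3 of these 6 libraries, which left 14941 of 34202 rows. All 6 rats were adult male Sprague-Dawley rats of 180 to 200 g with chronic constriction injury (CCI) of the left sciatic nerve, and received their preparation for 5 days, from day 6 to day 10 after surgery. The injured side of the L4-L6 cord was taken on day 10. The CCI+YH rats received 7.2 g and the CCI+BZ rats 3.6 g crude drug per kg, so the preparation and the dose cannot be told apart. The fit also used 3 libraries each of sham rats, whose nerve was exposed and not tied, of untreated CCI rats, and of CCI+YZP rats, which received the whole Yuan-Hu Zhi Tong Prescription at 10.8 g crude drug per kg.

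In this model, loose ties around the sciatic nerve swell and constrict it, and the rat develops lasting hypersensitivity of the paw. The lumbar cord receives the input of that nerve, and its dorsal horn neurons, microglia and astrocytes are known to change their expression after such an injury. Yuan-Hu Zhi Tong is a Chinese herbal preparation for pain that is known to combine Corydalis rhizome with Angelica dahurica root. The labels give the components by the letters YH and BZ alone and do not state how either was prepared. The title of the series presents the design as a study of how the parts work together, and YH against BZ asks where cords that received different parts differ. The rows carry identifiers with no symbols, and 0 of them matched the reference table. Genes are therefore given by identifier with no function, and neither the cell types of the cord nor any pathway was examined.

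The 6 libraries did not group by the preparation on the first principal component, and lay apart by a narrow gap on the second. In a principal component analysis of these libraries alone (log2 CPM), 35.8% of their variance fell on the first component, where CCI+YH libraries 1, 2 and 3 scored -13.9, 13.6 and -22.0. CCI+BZ libraries 1, 2 and 3 scored -25.0, 18.8 and 28.6. Each group thus had libraries on both sides, and CCI+BZ 1 lay beside CCI+YH 3. On the second component, with 17.2% of the variance, CCI+YH 1, 2 and 3 scored -7.45, -29.0 and 6.21 and CCI+BZ 1, 2 and 3 scored 6.57, 8.56 and 15.1. Every CCI+YH library was below every CCI+BZ library there, with CCI+YH 3 just under CCI+BZ 1. The root mean square difference in log2 CPM was 0.394 to 0.503 over the 9 pairs that joined a CCI+YH to a CCI+BZ library. It was 0.408 to 0.459 over the 3 pairs within CCI+YH and 0.399 to 0.513 over the 3 pairs within CCI+BZ. The smallest distances were those of CCI+BZ 1 to CCI+YH 1 and to CCI+YH 3, and the largest was between CCI+BZ 1 and CCI+BZ 3. The distances between rats on different preparations thus covered the same range as those between rats on the same one.

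**Figure D1:**
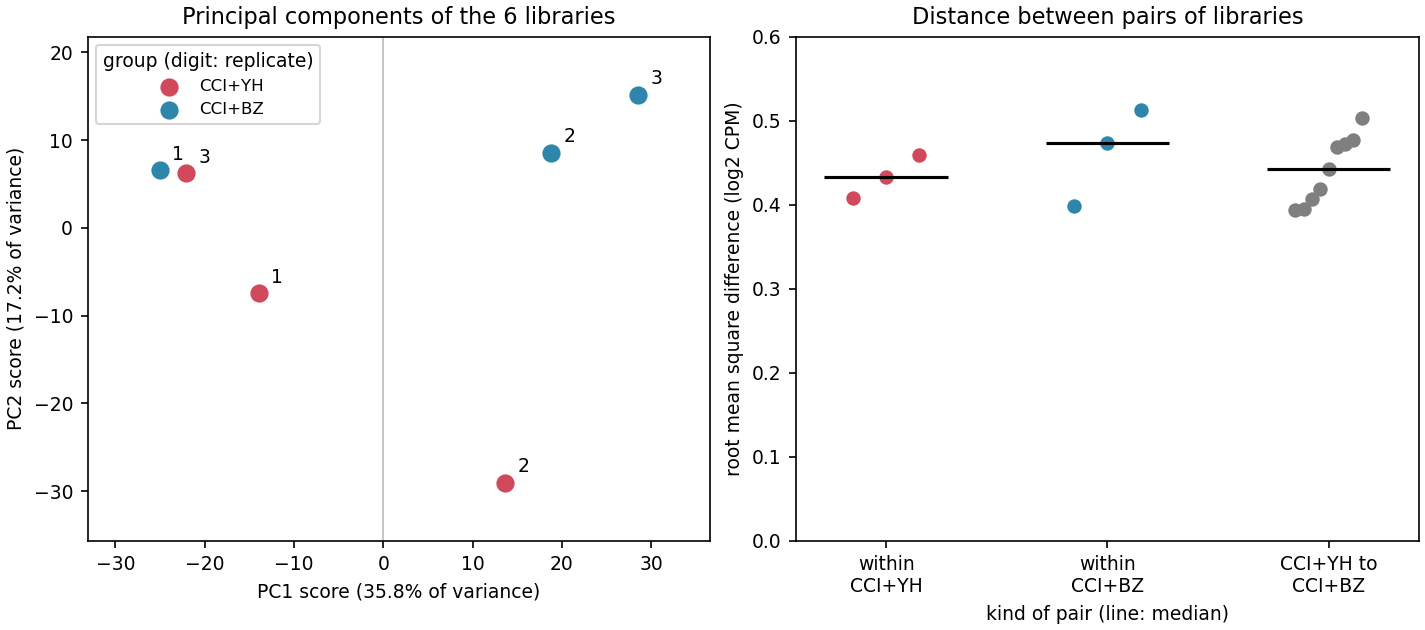
Left, scores of the 6 libraries on the first and second principal components of log2 CPM, with the replicate number beside each point. Right, root mean square difference in log2 CPM for each pair of libraries, with a line at the median of each kind of pair; the medians were 0.433 within CCI+YH, 0.474 within CCI+BZ and 0.443 between the groups, and the 3 ranges overlap. The groups mix on the first component and lie apart on the second, where CCI+YH 3 (6.21) is next to CCI+BZ 1 (6.57).

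The CCI+YH libraries held 15093246 to 20711139 counts in total, and the CCI+BZ libraries 18027835 to 19910603. The share of all counts taken by the 3 most abundant genes, which were the same 3 in every library, was 7.91%, 9.09% and 7.38% in CCI+YH 1, 2 and 3. It was 6.76%, 8.43% and 9.18% in CCI+BZ 1, 2 and 3. The 3 libraries with the lowest shares were those with negative scores on the first component, and the part of this share in the spread of the libraries was not tested. The median gene had a standard deviation of 0.130 in CCI+YH and 0.134 in CCI+BZ on the log2 CPM scale, and 52.6% of genes had the larger one in CCI+BZ.

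A set of 7 genes differed between the preparations in edgeR's two-sided quasi-likelihood test at a Benjamini-Hochberg adjusted p under 0.05. Of these, 5 were higher and 2 lower in CCI+YH, and they made up 0.0469% of the genes tested (0.0335% higher and 0.0134% lower). Their log2 fold changes, CCI+YH minus CCI+BZ, ran from -4.12 to 3.71. At an unadjusted p under 0.05 there were 814 genes, 5.45% of those tested, where 747.1 are expected with no difference; 442 were higher (2.96%) and 372 lower (2.49%) in CCI+YH. In all 7 genes the CCI+YH libraries lay wholly above or below the CCI+BZ libraries, as they did in 1363 genes, or 9.12%, of all those tested. All 7 were Ensembl genes, and none of the 742 tested loci with only a running number as a name was called, although 26 of them had an unadjusted edgeR p under 0.05.

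**Figure D2:**
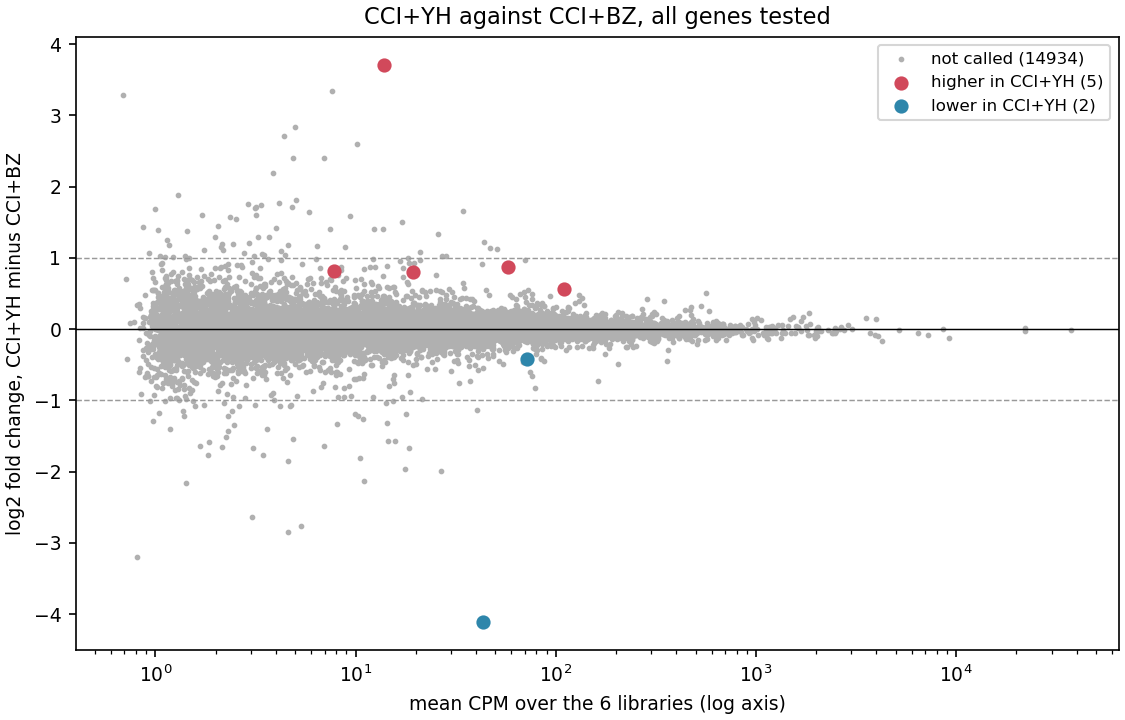
Each point is 1 of the 14941 genes tested, placed by its mean CPM over the 6 libraries (log axis) and its log2 fold change, CCI+YH minus CCI+BZ; dashed lines mark 1 and -1. The 5 called genes that were higher in CCI+YH and the 2 that were lower are coloured. Of these 7, 5 lie between the dashed lines, with differences of a size also seen among uncalled genes of lower CPM. At 50 CPM or more, where 3 of the 7 lie, the 95th percentile of the absolute log2 fold change was 0.187.

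The gene with the smallest p was ENSRNOG00000050647, which was low in CCI+BZ. Its level was 36.5, 14.8 and 26.1 CPM in CCI+YH 1, 2 and 3 and 2.25, 1.49 and 2.12 CPM in CCI+BZ 1, 2 and 3. The lowest CCI+YH library stood well above the highest CCI+BZ library, and CCI+YH 2 was the lowest of its group. The means were 25.8 ± 10.9 and 1.96 ± 0.408 CPM (SD, n = 3 each), a 13.1-fold difference with a log2 fold change of 3.71 (SE 0.456, 95% interval 2.73 to 4.69, edgeR adjusted p = 0.0126). The CCI+BZ libraries held 28 to 42 counts of this gene, so its level there rests on few reads. Since whole tissue was sequenced, fewer cells that express a gene and less RNA per cell cannot be told apart for this gene or any below. The call was lost without CCI+YH 1 (adjusted p = 0.0852) and without CCI+BZ 1, 2 or 3 (0.0562, 0.109 and 0.0832). It was also lost in limma voom (adjusted p = 0.180, or 0.127 with quality weights).

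ENSRNOG00000045863 was also higher in CCI+YH, with a smaller and more even difference. It stood at 10.5, 9.71 and 9.70 CPM in CCI+YH 1, 2 and 3 and at 6.11, 5.32 and 5.54 CPM in CCI+BZ 1, 2 and 3. Every CCI+YH library lay above every CCI+BZ library, and both groups were narrow. The means were 9.97 ± 0.460 and 5.66 ± 0.410 CPM (SD, n = 3 each), a 1.76-fold difference (log2 fold change 0.82, SE 0.102, 95% interval 0.60 to 1.04, edgeR adjusted p = 0.0126). The call was lost without the same 4 libraries, with an adjusted p of 0.111 without CCI+YH 1 and 0.0562, 0.109 and 0.0832 without CCI+BZ 1, 2 and 3.

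The other 3 called genes that were higher in CCI+YH differed by 1.84-fold, 1.48-fold and 1.74-fold. The first of them was at 74.5 ± 8.35 CPM in CCI+YH and 40.5 ± 0.601 CPM in CCI+BZ (SD, n = 3 each; edgeR adjusted p = 0.0201). The second was at 132 ± 15.5 and 89.1 ± 2.47 CPM (adjusted p = 0.0206), and the third at 24.6 ± 0.500 and 14.1 ± 1.22 CPM (adjusted p = 0.0318). In the first and the second, the CCI+BZ libraries were close together and the CCI+YH libraries more spread; in the third it was CCI+YH that was the narrower group. Each of the 3 lost its call without CCI+YH 1 (adjusted p = 0.141, 0.151 and 0.151), without CCI+YH 3 (0.121, 0.137 and 0.152) and without any CCI+BZ library (0.0587 to 0.192 over the 3 genes). The third also lost it without CCI+YH 2 (0.103), CCI 3 (0.054) or Sham 1, 2 or 3 (0.0679, 0.0548 and 0.0634).

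Of the 2 genes that were lower in CCI+YH, ENSRNOG00000013548 had the widest difference of all 7. It was at 4.42, 4.36 and 5.32 CPM in CCI+YH 1, 2 and 3 and at 131, 74.1 and 39.3 CPM in CCI+BZ 1, 2 and 3. The CCI+YH libraries were nearly equal, while the CCI+BZ libraries were spread widely and all far higher. The means were 4.70 ± 0.533 and 81.6 ± 46.4 CPM (SD, n = 3 each), 17.3-fold lower in CCI+YH (log2 fold change -4.12, SE 0.586, 95% interval -5.38 to -2.86, edgeR adjusted p = 0.0206). The counts behind these levels were 67 to 91 in the CCI+YH libraries, against 759 to 2447 in CCI+BZ. The call was lost without CCI+YH 1, 2 or 3 (adjusted p = 0.178, 0.136 and 0.144) and without CCI+BZ 1 or 2 (0.0562 and 0.109), and held without CCI+BZ 3 (0.0386). It was also lost in limma voom (adjusted p = 0.290, or 0.306 with quality weights).

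ENSRNOG00000011427 was lower in CCI+YH by a small and even margin. It was at 58.2, 62.4 and 64.1 CPM in CCI+YH 1, 2 and 3 and at 78.3, 85.1 and 84.6 CPM in CCI+BZ 1, 2 and 3. The groups did not overlap. The means were 61.6 ± 3.00 and 82.7 ± 3.79 CPM (SD, n = 3 each), 1.34-fold lower in CCI+YH (log2 fold change -0.42, SE 0.0673, 95% interval -0.57 to -0.28, edgeR adjusted p = 0.0459). This was the largest adjusted p of the 7, and the call was lost when any 1 of 13 of the 15 libraries was left out (adjusted p 0.0548 to 0.300); it held without CCI 1 (0.0259) or CCI 2 (0.0269).

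**Figure D3:**
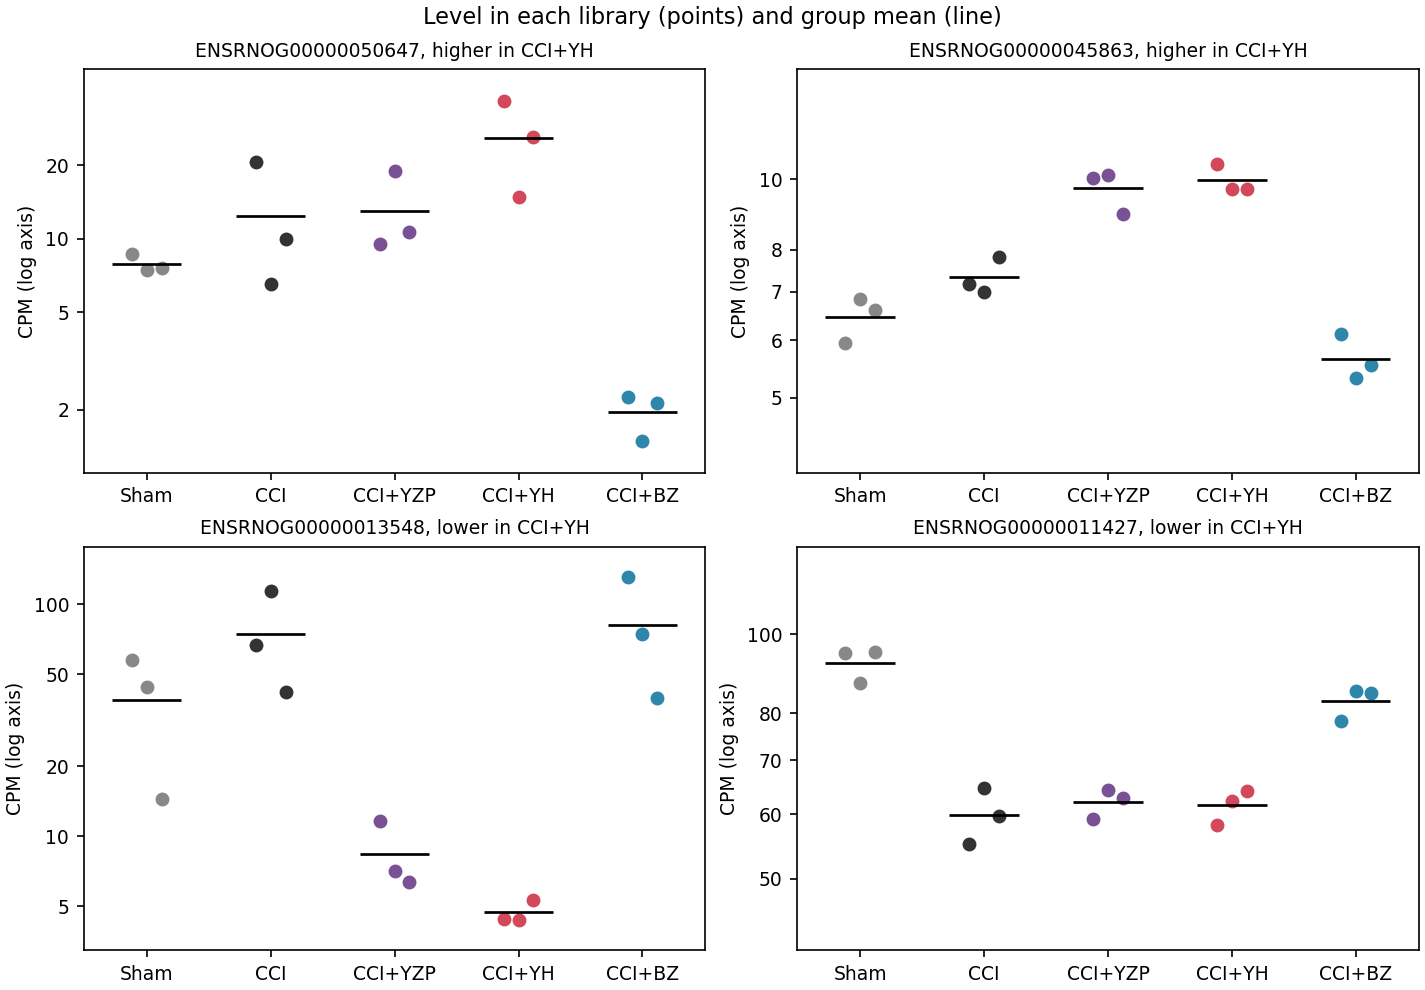
Level of 4 called genes in each of the 15 libraries, in CPM on a log axis, with a line at the mean of each group of 3. CCI+YH and CCI+BZ do not overlap in any panel; CCI+YZP lies on the CCI+YH side of CCI+BZ in all 4, with ENSRNOG00000013548 at 6.36 to 11.6 CPM in CCI+YZP against 39.3 to 131 CPM in CCI+BZ.

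The untreated CCI group gives a level against which the CCI+YH and CCI+BZ estimates of each gene can be set. The contrasts of CCI+YH and of CCI+BZ with CCI share the CCI libraries, and each shares a group with the comparison that chose these genes, so their values are given side by side as a description. No gene of the 14941 was called in either contrast (0% of genes tested), and at an unadjusted p under 0.05 there were 828 in CCI+YH and 994 in CCI+BZ (5.54% and 6.65%). For ENSRNOG00000050647 the log2 fold change against CCI was 1.05 in CCI+YH (95% interval 0.22 to 1.88, edgeR adjusted p = 0.82) and -2.66 in CCI+BZ (-3.63 to -1.70, adjusted p = 0.208). The estimates for this gene lay on opposite sides of untreated CCI, which was at 20.7, 6.54 and 10.0 CPM, and CCI+BZ was the farther of them.

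For ENSRNOG00000045863 it was 0.44 in CCI+YH (0.23 to 0.66, edgeR adjusted p = 0.546) and -0.37 in CCI+BZ (-0.59 to -0.15, adjusted p = 0.58), at nearly equal distance on either side of CCI. ENSRNOG00000013548 departed from CCI in the CCI+YH estimate, at -3.98 (-5.23 to -2.72, adjusted p = 0.143), and was at 0.14 in CCI+BZ (-0.88 to 1.15, adjusted p = 0.966). Its CCI libraries, at 66.4, 114 and 41.6 CPM, were as high and as spread as those of CCI+BZ. ENSRNOG00000011427 showed the reverse, at 0.041 in CCI+YH (-0.10 to 0.19, adjusted p = 0.961) and 0.47 in CCI+BZ (0.32 to 0.61, adjusted p = 0.117). For the other 3 genes the log2 fold changes were 0.11, 0.17 and 0.35 in CCI+YH and -0.77, -0.39 and -0.46 in CCI+BZ. In the first of these the CCI+YH interval spanned 0 (-0.15 to 0.36) and the CCI+BZ interval did not (-1.03 to -0.52), as for ENSRNOG00000011427. In all 5 genes that were higher in CCI+YH than in CCI+BZ, every CCI+BZ library was below every CCI library. The CCI+YH libraries lay wholly above CCI in 2 of these 5 and overlapped CCI in 3. Over all genes tested, 11.9% did not overlap between CCI+BZ and CCI, and 10.8% between CCI+YH and CCI. The CCI+BZ and CCI+YH libraries both helped to choose these genes.

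**Figure D4:**
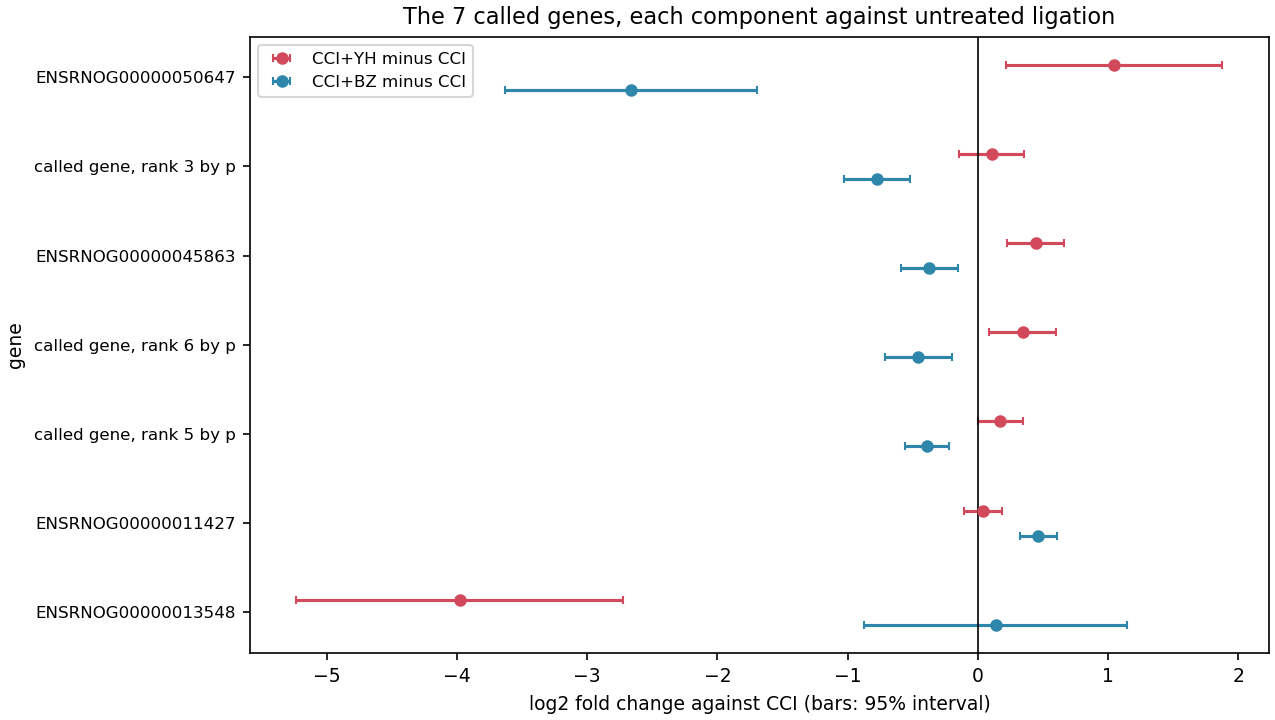
Log2 fold change of the 7 called genes in CCI+YH (red) and CCI+BZ (blue) against untreated CCI, with 95% intervals; 3 genes are labelled by their rank in p between CCI+YH and CCI+BZ. ENSRNOG00000013548 is the only one of the 7 in which CCI+YH lies far from 0 (-3.98) while the interval of CCI+BZ spans 0. In ENSRNOG00000011427 and in the gene of rank 3, the interval of CCI+YH spans 0 and that of CCI+BZ does not.

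The CCI+YZP rats received the whole prescription. In all 7 genes the CCI+YZP libraries did not overlap the CCI+BZ libraries (over all genes tested, 9.14% did not overlap between these groups), and they lay on the CCI+YH side each time; the CCI+BZ libraries that helped to choose the genes are part of this count. CCI+YZP overlapped CCI+YH in 5 of the 7, and 7.82% of all genes tested did not overlap between that pair. The exceptions were ENSRNOG00000013548, at 11.6, 7.11 and 6.36 CPM in CCI+YZP against 4.36 to 5.32 CPM in CCI+YH, and the called gene at 132 CPM in CCI+YH, which was at 149 ± 2.36 CPM in CCI+YZP. ENSRNOG00000045863 was at 9.72 ± 0.668 CPM and ENSRNOG00000011427 at 62.1 ± 2.65 CPM in CCI+YZP (SD, n = 3 each), against 9.97 and 61.6 CPM in CCI+YH. ENSRNOG00000050647, at 9.48, 18.9 and 10.7 CPM, was nearer to untreated CCI, with a log2 fold change against CCI of 0.067 (95% interval -0.77 to 0.90).

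Another pair of contrasts share no library with CCI+YH or CCI+BZ. In CCI+YZP against CCI, 0 of the 7 genes were called, where 1 gene was called in all (0.00669% of genes tested). The lowest adjusted p among the 7 was that of ENSRNOG00000013548, with a log2 fold change of -3.16 (SE 0.546, 95% interval -4.34 to -1.99, edgeR adjusted p = 0.192), and every CCI+YZP library was below every CCI library. ENSRNOG00000045863 was at 0.41 (95% interval 0.19 to 0.62, edgeR adjusted p = 0.487), again without overlap. In all, 3 of the 7 genes did not overlap between CCI+YZP and CCI, against 14.7% of all genes tested.

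In CCI against sham, 1 of the 7 was called, where 4 genes were called in all (0.0268%). That gene was ENSRNOG00000011427, which was at 94.7, 87 and 95 CPM in sham and 55.1, 64.7 and 59.8 CPM in CCI (log2 fold change -0.62, SE 0.0671, edgeR adjusted p = 0.00412). Its CCI+BZ libraries, at 78.3 to 85.1 CPM, lay between the 2 groups without touching either. ENSRNOG00000013548 varied within sham as it did within CCI, at 57.4, 43.9 and 14.5 CPM, and its log2 fold change of 0.94 in CCI had an interval of -0.093 to 1.97. ENSRNOG00000050647 was at 7.90 ± 0.668 CPM in sham, and its CCI+BZ libraries were below those as well. The lowest CCI+YH library, at 14.8 CPM, was above the highest sham library, at 8.66 CPM. Of the 7 genes, 4 did not overlap between CCI and sham, against 26.9% of all genes tested.

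Away from the 7 genes, most differences were small and their limits narrow. The median absolute log2 fold change was 0.081 over all genes tested, and the median signed value was -0.0025. The 95% interval of the difference lay inside -1 to 1, so that a 2-fold change in either direction fell outside it, for 13658 genes or 91.4%. This share rose with the level of the gene. It was 54.3% of the 1231 genes under 2 CPM, 86.4% of the 3702 genes at 2 to 10 CPM, 96.9% of the 5935 genes at 10 to 50 CPM and 99.2% of the 4073 genes at 50 CPM or more. The median SE fell from 0.323 in the lowest class to 0.0737 in the highest.

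A fitted difference of 2-fold or more was found for 119 genes, 0.796% of those tested. In CCI+YH, 66 of them were higher (0.442%) and 53 were lower (0.355%). Only ENSRNOG00000050647 and ENSRNOG00000013548 among them were called, and 57 had an unadjusted edgeR p under 0.05 (0.382% of genes tested). These genes were poorly expressed, with a median of 3.45 CPM and 76.5% of them under 10 CPM, against 33.0% of all genes tested. Most of them also varied within a group. In 103 of the 119 the libraries of CCI+YH or of CCI+BZ spanned a 2-fold range or more, as did 8.51% of all genes tested. In 86 of the 119 the ratio of the group means was under 2-fold when 1 of the 6 libraries was left out (means compared after 0.1 CPM was added). The 119 were chosen by their ratio over the same 6 libraries, and there is always a library whose removal lowers it. Genes just past 2-fold fall under it readily, so this count is a description only. The ratio with 0.1 CPM added was not required to reach 2-fold with all 6 libraries. Among these 86, the library whose removal gave the lowest ratio was CCI+YH 3 in 20, CCI+BZ 3 in 20 and CCI+YH 2 in 18. It was CCI+YH 1 in 11, CCI+BZ 1 in 9 and CCI+BZ 2 in 8. Some library is named for every gene by this rule, however small its part. The groups did not overlap in 48 of the 119 genes (0.321% of genes tested). In 21 there was neither overlap nor a ratio under 2-fold with 1 library left out.

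Few genes were detected in only one of the groups. CPM reached 1 in all 6 libraries for 14032 rows. It did so in all 3 CCI+YH libraries and no CCI+BZ library for 10 rows, and in all 3 CCI+BZ libraries and no CCI+YH library for 20. None of these 30 rows had 0 counts throughout the other group, so each had some reads in both.

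How many genes were called depended on the tool and on which libraries entered. DESeq2 on all 15 libraries called 39 genes (26 higher, 13 lower; 0.261% of genes with an adjusted p), among them all 7, and 6 of the 39 differed by 2-fold or more. All 39 had an unadjusted edgeR p under 0.05 and did not overlap between the groups, against 5.45% and 9.12% of all genes tested. The same CCI+YH and CCI+BZ libraries chose the 39, so neither count is separate support. On the 6 libraries alone DESeq2 called 44 of 14925 genes with an adjusted p (23 higher, 21 lower). Of these 44, 22 were among the 39, with all 7 included. EdgeR on the 6 libraries alone, with 4 residual degrees of freedom in place of 10, called 1 gene and none of the 7. Their log2 fold changes there were nearly the same, for example 3.71 for ENSRNOG00000050647 (adjusted p = 0.0721), -4.11 for ENSRNOG00000013548 (0.0848), 0.82 for ENSRNOG00000045863 (0.232) and -0.42 for ENSRNOG00000011427 (0.235). When the share of the top 3 genes entered the fit of all libraries as a covariate, edgeR called 11 genes, with all 7 among them. The 1 gene called on the 6 libraries alone was at 36.8 ± 1.76 CPM in CCI+YH and 14.6 ± 1.69 CPM in CCI+BZ (SD, n = 3 each), with an adjusted p of 0.0272. In the fit of all libraries its log2 fold change was also 1.33, with an SE of 0.321 in place of 0.101 (adjusted p = 0.338), and its level in CCI was 25.8 ± 11.1 CPM, far more spread than in either of the groups compared.

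The number called also moved with single libraries of the groups compared. Without CCI+YH 1, CCI+BZ 1 or CCI+BZ 2 edgeR called 0 genes, with 779, 1319 and 682 genes at an unadjusted p under 0.05. It called 1 without CCI+BZ 3 (ENSRNOG00000013548), 3 without CCI+YH 3, of which 2 were among the 7, and 8 without CCI+YH 2, all higher in CCI+YH and 4 of them among the 7. Leaving out a library of another group gave between 5 and 8 genes, with 5 without CCI 3 or any sham library.

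**Figure D5:**
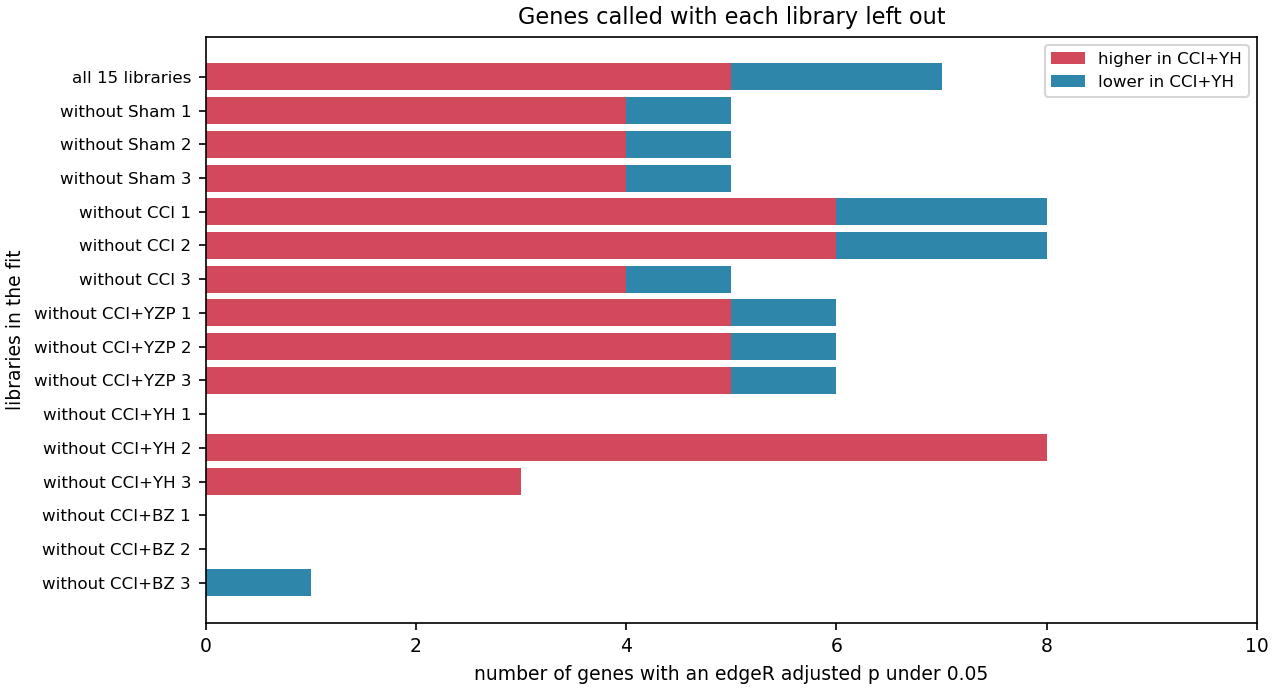
Number of genes with an edgeR adjusted p under 0.05 between CCI+YH and CCI+BZ with all 15 libraries and with each library left out in turn, split by direction. The bar is 7 genes with all libraries and 0 without CCI+YH 1, CCI+BZ 1 or CCI+BZ 2.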

How the data were processed

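The authors deposited raw counts per gene in a table for each library. The submitters' processing notes name build rn4 and DESeq2 1.16.1; aligner, counter, annotation and strand setting: not given in the sources used here. Overlapping or antisense genes and near-identical copies may share reads. Total counts were 15093246 to 22757104 over the 15 libraries. Libraries are taken as separate rats (3 sequenced of 7 per ligated group); those of one group differed by more than sampling noise (chi-square per gene 8.25 to 28.3 within CCI+YH and CCI+BZ).

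With edgeR 4.0.16 in R 4.3.3, kept genes were scaled by TMM and fitted over all 15 libraries with 1 coefficient per group (glmQLFit and glmQLFTest, 10 residual degrees of freedom), since 6 libraries leave 4. CPM are after scaling. An adjusted p under 0.05 is a call. Standard errors were computed from F statistics; principal components used log2 CPM with a prior count of 2. On simulated counts for CCI+YH against CCI+BZ over 14941 genes, the fit recovered 52.2% of 67 genes changed by 1.5-fold and 76.1% of 67 by 2-fold. It recovered 97% of 66 changed by 4-fold, with 10 false calls among the unchanged genes. Counts were drawn for each gene on its own from fitted means and dispersions. Far more genes were changed than were called in the data, which eases the adjusted threshold, so recovery in the real counts may be lower.

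The members, lists and tests were chosen with earlier results of these data known. The naming rule allowed at most 2 called identifiers in each direction, by smallest p; gene and marker lists could not be used, since the reference (GRCr8, 47357 genes) holds 0 Ensembl identifiers. Alternatives were DESeq2 1.42.0, limma 3.58.1 voom, other scalings and filters, a replicate block and each library left out; 3 were added after seeing the data.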

Additional observations from a re-analysis of the deposited data

Results flagged for a closer look

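The effects of YH and of BZ against untreated CCI differed in 7 genes, by the direct edgeR test of CCI+YH against CCI+BZ. The CCI libraries cancel in the log2 fold change of this test, but they enter its shared estimate of spread. The test called 5 genes without CCI 3 and 8 without CCI 1 or CCI 2. No gene was called without CCI+YH 1, CCI+BZ 1 or CCI+BZ 2. EdgeR on the 6 libraries alone called none of the 7. No gene was called in CCI+YH or in CCI+BZ against CCI. The pair of log2 fold changes against CCI was 1.05 and -2.66 for ENSRNOG00000050647, 0.44 and -0.37 for ENSRNOG00000045863, -3.98 and 0.14 for ENSRNOG00000013548, and 0.041 and 0.47 for ENSRNOG00000011427, in CCI+YH and CCI+BZ in that order. The doses differed. Each library was left out in turn, but with 3 libraries per group none was tested as an outlier.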

How the results depend on the processing

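The 7 calls were all made again, with the same signs, with RLE or upper-quartile scaling, filterByExpr, a minimum of 5 CPM, no filter (8 genes in all) and Ensembl rows alone. The number called was 39 in DESeq2, 3 in limma voom, also with quality weights (all higher in CCI+YH and among the 7, with ENSRNOG00000050647, ENSRNOG00000013548 and ENSRNOG00000011427 not called), 1 in edgeR on only the 6 libraries, and 0 to 8 with 1 library left out. Of the alternatives added after seeing the data, the share of counts in the top 3 genes as a covariate gave 11 genes with all 7 among them, and DESeq2 on only the 6 libraries gave 44. Over 29 alternatives none of the 7 log2 fold changes changed sign. In all 7 the CCI+YH and CCI+BZ libraries did not overlap, so a change of sign was hardly possible and its absence is no support. The cause of the changes in number was not tested. The adjusted p ranged from 1.24e-26 to 0.180 for ENSRNOG00000050647, 2.16e-05 to 0.532 for ENSRNOG00000045863, 1.82e-12 to 0.306 for ENSRNOG00000013548 and 2.22e-05 to 0.532 for ENSRNOG00000011427.

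With the replicate number as a block, 2 genes were called (ENSRNOG00000050647 and ENSRNOG00000013548), and 1 on only the 6 libraries. Deviations from the group means correlated at 0.128, 0.155 and -0.154 between CCI+YH and CCI+BZ libraries 1, 2 and 3, and not every library correlated best with its own number, so the replicate numbers are not taken as pairs. The planned medians of gene lists were not run, for want of symbols. Precision was lowest for the 1231 genes under 2 CPM, where the interval excluded a 2-fold change for 54.3%.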
